A study of Mus musculus with 6 samples.

Results

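The custom H/ACA panel held 72 snoRNA probes, and 38 of them were listed only by an Ensembl transcript identifier. Of these 38, 34 had a value in all 6 samples and were taken as the set described here. The other 4, ENSMUST00000083277, ENSMUST00000104381, ENSMUST00000116744 and ENSMUST00000116932, had no value in any sample. The remaining measured probes of the panel, 33 in number, carried RefSeq accessions. A RefSeq gene table paired all 33 of those with a symbol and none of the 38 Ensembl transcripts. The snoRNAs are therefore named by transcript identifier, with no host gene, target uridine or sequence.

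Box H/ACA snoRNAs are short nucleolar RNAs that fold into hairpins joined by a hinge, the H box, and end in an ACA box. Each assembles with dyskerin, the pseudouridine synthase, and with the proteins Nhp2, Nop10 and Gar1. Internal loops of the hairpins pair with ribosomal RNA and place one uridine in the active site, where it is turned into pseudouridine. A few family members act in cleavage of the ribosomal RNA precursor, and others have no known ribosomal RNA target. In mammals most are cut out of introns of protein-coding or non-coding host genes.

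The samples were C2C12 cells, an established mouse myoblast line that leaves the cell cycle and fuses into multinucleated myotubes on differentiation. They were 3 samples of myotubes, differentiated for 7 days, and 3 control samples of undifferentiated myoblasts. All were of this 1 line, and no allele or agent was named. Total RNA of whole cultures was counted with NanoString nCounter probes, which are colour-coded and read without amplification, so fewer cells of a type and less RNA per cell cannot be told apart. Whether the 3 samples of a state were separate cultures is not stated, so the p-values measure only the spread between these samples, which may be technical.

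Values are normalized probe counts as deposited, whole counts multiplied by one factor per sample. Dividing by that factor gave totals over the panel between 1573930 and 1627062 in myotubes and between 1097844 and 1570369 in myoblasts. No muscle or fibroblast marker was on the panel, so the labelled states could not be checked. Samples were unevenly spaced within a state. Over the 34 snoRNAs, the SD of the log2 difference was 0.0621 between myotube samples 1 and 2, while myotube sample 3 differed from them with SDs of 0.372 and 0.377. Among myoblasts it was 0.220 between samples 2 and 3, while sample 1 differed from them with SDs of 0.487 and 0.358. Where omitting myotube sample 3 or myoblast sample 1 changed the outcome of the test, the value without it is given beside the result. Myotube samples 1 and 2 still differed by more than counting error (chi-square over the panel 13.4 times its degrees of freedom), which cannot show whether they were separate cultures. They were kept as separate samples, and averaging them gave 9 snoRNAs higher and 8 lower in the test below, in place of 11 and 9. Over the panel it gave 31 calls in either direction, in place of 37.

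The 34 snoRNAs spanned a wide range of signal in both states. State means ran between 312 and 167297 normalized counts in myotubes and between 638 and 164029 in myoblasts. Their median was 7163 in myotubes and 6452 in myoblasts, while the whole panel's median was 13482 in myotubes and 12359 in myoblasts. For the other 33 probes it was 21286 in myotubes and 13941 in myoblasts. Only 12 of the 34 had a mean above the panel's median. Probes bind their targets with unequal efficiency, so this order is one of signals and not of molecules. The lowest count behind any of these values was 244, reached by ENSMUST00000104376 in myotube sample 3.

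A single probe gave the largest part of the summed signal of the 34. ENSMUST00000082448 stood at 156750, 155279 and 189861 normalized counts in myotube samples 1 to 3, against 161157, 171435 and 159495 in the myoblast samples. The states overlapped, and its share of the summed signal was between 25.3% and 29.9% in myotubes and between 25.9% and 27.6% in myoblasts. ENSMUST00000082579 was second, at 83121, 82588 and 87381 in myotubes, against 77477, 79040 and 73306 in myoblasts. Every myotube sample of ENSMUST00000082579 lay above every myoblast sample, by a margin too small to pass the test (log2 change 0.14 ± 0.11 SE, limma, adjusted p = 0.28). Next came ENSMUST00000083928, at 41507 ± 906 in myotubes and 47088 ± 3493 in myoblasts (SD, n = 3 each), which did not pass either (log2 change -0.18, adjusted p = 0.20), although the states did not overlap. It passed as a fall when myoblast sample 1 was omitted (-0.24, adjusted p = 0.019), for equal totals (-0.35, adjusted p = 0.011) and for quantile normalization (-0.55, adjusted p = 0.0029).

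The summed signal of the 34 was 621971 ± 11171 normalized counts in myotubes and 606380 ± 20071 in myoblasts (SD, n = 3 each; ratio 1.03, exact two-sided permutation p = 0.5). The panel as a whole summed to 1732635 ± 34246 in myotubes and 1536111 ± 87790 in myoblasts (ratio 1.13, exact permutation p = 0.1). The 34 thus held 35.9% ± 1.4 of the panel's signal in myotubes and 39.5% ± 1.0 in myoblasts. The shares did not overlap between the states, and the exact two-sided permutation p was 0.1, the smallest that 3 samples against 3 allow.

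The comparison of myotubes with myoblasts asked which of these snoRNAs differ in signal between the states. Of the 34, 11 were higher in myotubes, 9 were lower and 14 did not pass the test (limma on log2 of the value plus 1, Benjamini-Hochberg adjusted p under 0.05 over all 67 measured probes). Those that passed were 20 of 34, or 58.8%, where 55.2% of the whole panel passed. By direction, 32.4% of the 34 rose, where 35.8% of the panel rose, and 26.5% fell, where 19.4% of the panel fell. Of the other 33 probes, 51.5% passed, 39.4% rose and 12.1% fell. The share that passed and the share that rose are near those of the panel, of which these snoRNAs are a part. The values of the states did not overlap for 24 of the 34, or 70.6%, where the panel gave 65.7%. All 20 that passed were among these 24.

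Estimates above and below 0 were equal in number. There were 17 of each among the 34, with a median change of -0.01 on the log2 scale, beside a median of 0.14 over the panel. The log2 changes ran from -2.09 to 1.50. Falls of at least 2-fold were seen for 6 of the 9 that fell, and these were all of the 6 such falls on the panel, a count with no test. Without myotube sample 3, ENSMUST00000083729 and ENSMUST00000082700 came just under 2-fold (log2 changes -0.98 and -0.91), and the rest of the 6 stayed past it. Without myoblast sample 1, ENSMUST00000082700 was also just under 2-fold (-0.97). Under quantile normalization ENSMUST00000104376 was at -0.77, while ENSMUST00000083274 came past 2-fold at -1.11, as it did for equal totals (-1.05). Rises of at least 2-fold were seen for 3 of the 11 that rose, and the panel had 7. The median log2 change was 0.92 among the 11 and -1.15 among the 9. Giving every sample the same panel total moved the changes of the 34 by a median of -0.18, with 9 higher and 12 lower, and quantile normalization moved them by -0.17, with 8 higher and 12 lower. Over the panel, 42 probes passed in either direction for equal totals and 37 for quantile normalization, where 37 passed as deposited.

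**Figure D1:**
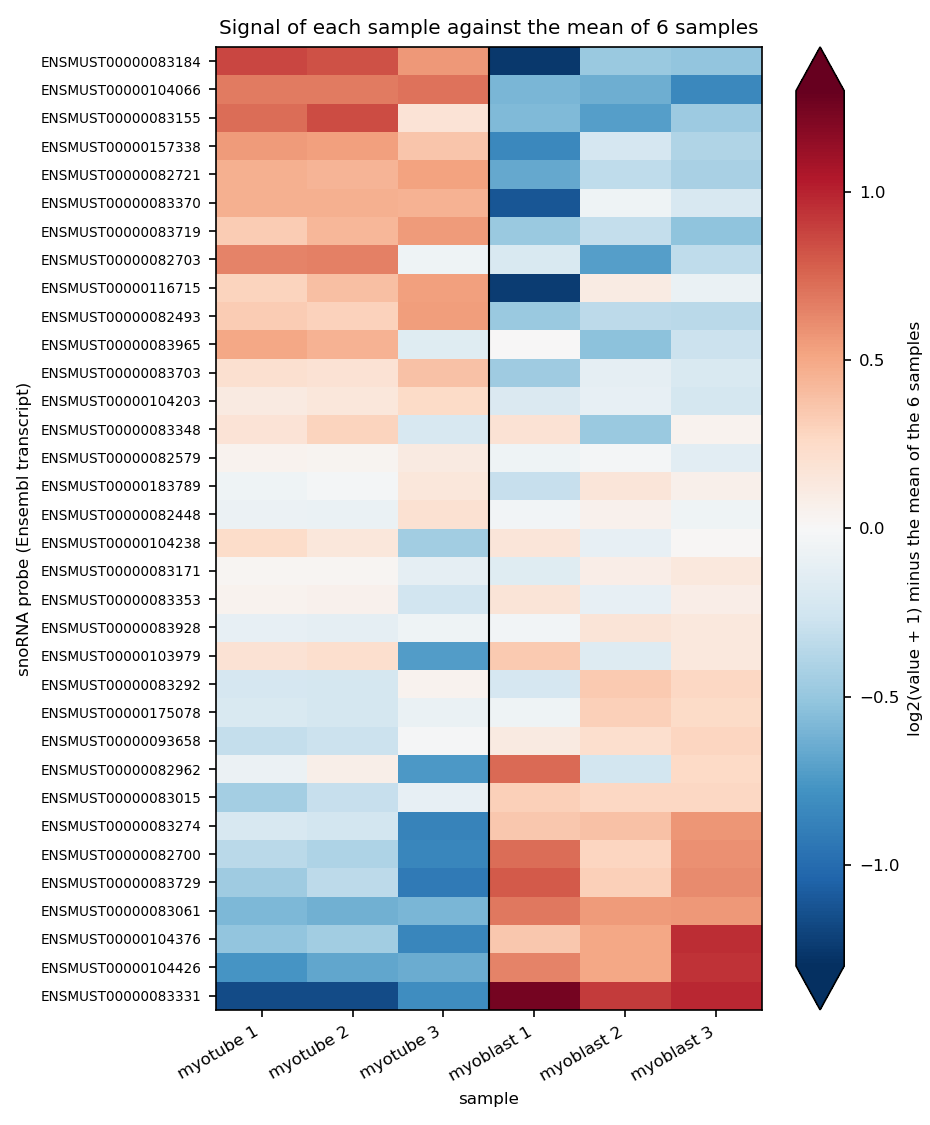
Heat map of log2(value + 1) of each of the 34 snoRNA probes (rows, ordered by change) in each sample (columns, 3 myotube and 3 myoblast samples), as the difference from the mean of the 6 samples; red is above and blue below that mean. ENSMUST00000083184 at the top and ENSMUST00000083331 at the bottom separate the states in every sample, and myotube sample 3 and myoblast sample 1 depart from the others of their state for many probes.

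ENSMUST00000083331 had the largest change of the panel in either direction. It was read at 1065, 1059 and 1364 normalized counts in myotube samples 1 to 3, against 5638, 4467 and 4686 in the myoblast samples. The highest myotube sample was thus far below the lowest myoblast sample. The fall was 4.25-fold (log2 change -2.09 ± 0.15 SE, 95% interval -2.45 to -1.72, adjusted p = 6.9e-05). By signal ENSMUST00000083331 ranked 29 among the 34 in myotubes and 21 in myoblasts.

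A group of low-signal snoRNAs fell alongside it. ENSMUST00000104426 stood at 440, 466 and 477 in myotubes, against 1168, 1060 and 1431 in myoblasts, a fall of 2.62-fold (adjusted p = 0.0002). ENSMUST00000083061 was among the most even within a state, at 810, 790 and 809 in myotubes, against 1960, 1787 and 1804 in myoblasts, a fall of 2.30-fold (log2 change -1.20 ± 0.11 SE, adjusted p = 0.00012). In both, the spread within a state was small beside the gap between the states. ENSMUST00000104376 had the lowest mean over all samples of the 34, at 330, 346 and 261 in myotubes, against 601, 671 and 917 in myoblasts. Its 2.31-fold fall passed the test (adjusted p = 0.0017), but under quantile normalization the log2 change was -0.77 in place of -1.21 and the call was lost (adjusted p = 0.06).

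ENSMUST00000083729, ENSMUST00000082700 and ENSMUST00000083274 were brighter probes that fell, and in all 3 the lowest value was that of myotube sample 3. ENSMUST00000083729 was read at 7429, 8058 and 5409 in myotubes, against 17760, 12703 and 15717 in myoblasts (2.22-fold lower, adjusted p = 0.002). For ENSMUST00000082700 the values were 6796, 6596 and 4832 in myotubes, against 14385, 10520 and 13113 in myoblasts (2.09-fold lower, adjusted p = 0.002). ENSMUST00000083274 showed 19822, 19521 and 12613 in myotubes, against 29228, 29987 and 34239 in myoblasts (1.83-fold lower, adjusted p = 0.0067). No myotube sample reached the lowest myoblast sample for any of these. All 3 calls also held without myotube sample 3, at log2 changes of -0.98, -0.91 and -0.66 in the order given.

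Smaller falls were those of ENSMUST00000083015 and ENSMUST00000093658. ENSMUST00000083015 was at 3510, 3883 and 4421 in myotubes, against 5922, 5775 and 5767 in myoblasts, where the samples almost coincided (1.48-fold lower, adjusted p = 0.0063). ENSMUST00000093658 stood at 12695, 13012 and 15557 in myotubes, against 17050, 18355 and 19125 in myoblasts, 1.32-fold lower (adjusted p = 0.027). That call did not survive the omission of myotube sample 1 or 2 or of myoblast sample 2 or 3 (adjusted p between 0.071 and 0.12). Averaging myotube samples 1 and 2 ended it too (0.12).

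**Figure D2:**
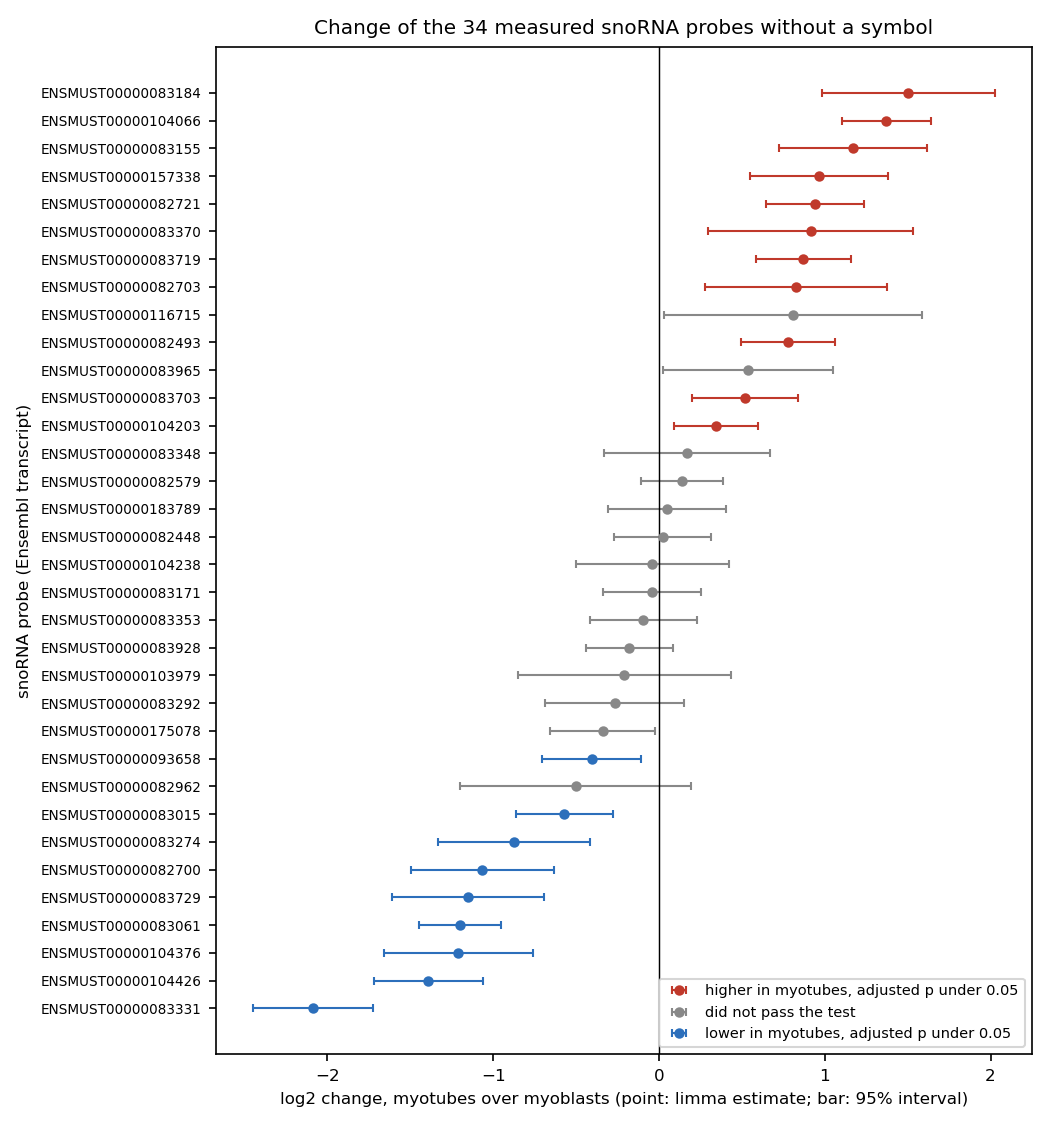
Change of each of the 34 snoRNA probes (rows) between 3 myotube and 3 myoblast samples. Points are limma log2 changes, positive where myotubes were higher, and bars are 95% intervals. Red points rose (11), blue points fell (9) and grey points did not pass the test (14), and the fall of ENSMUST00000083331 at -2.09 lies apart from the next, at -1.39.

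ENSMUST00000083184 led the rises, at 2.84-fold. It was read at 5697, 5549 and 4622 in myotube samples 1 to 3, against 1312, 2231 and 2186 in the myoblast samples (log2 change 1.50 ± 0.22 SE, 95% interval 0.98 to 2.03, adjusted p = 0.0012). Myoblast sample 1 was the lowest, and without it the log2 change was 1.25, still past the test. ENSMUST00000104066 rose 2.59-fold and was more even, with 10369, 10320 and 10577 in myotubes, against 4293, 4182 and 3635 in myoblasts (log2 change 1.37 ± 0.12 SE, adjusted p = 0.00011). ENSMUST00000083155 was at 9379, 10255 and 6424 in myotubes, against 3824, 3465 and 4091 in myoblasts, a rise of 2.25-fold (adjusted p = 0.0018). In ENSMUST00000083155, myotube sample 3 lay well below the other myotube samples and still above every myoblast sample.

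Rises just under 2-fold were seen for 5 more. ENSMUST00000157338 reached 7731, 7611 and 6742 in myotubes, against 2934, 4519 and 4021 in myoblasts (1.95-fold, adjusted p = 0.0027). ENSMUST00000082721 gave 13853, 13650 and 14439 in myotubes, against 6369, 8017 and 7519 in myoblasts (1.92-fold, adjusted p = 0.00085). ENSMUST00000083719, one of the dimmer probes, showed 1634, 1756 and 1907 in myotubes, against 934, 1051 and 908 in myoblasts (1.83-fold, adjusted p = 0.001). In these 3 the lowest myotube sample was clearly above the highest myoblast sample, and the call held in every alternative run.

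The other 2 rested more on single samples. ENSMUST00000083370 was nearly constant in myotubes, at 25201, 25060 and 24872, against a wide 8464, 17482 and 15822 in myoblasts (1.89-fold, adjusted p = 0.02). Without myoblast sample 1 its log2 change was 0.59 in place of 0.92 (adjusted p = 0.0021). The call ended without myotube sample 1, at a log2 change of 0.91 (adjusted p = 0.05001). It ended under quantile normalization as well, at 0.65 (adjusted p = 0.072). ENSMUST00000082703 had 1423, 1436 and 875 in myotubes, against 795, 554 and 726 in myoblasts, so that myotube sample 3 stood close to the myoblasts (1.77-fold, adjusted p = 0.019). Its call ended when myotube sample 1, myotube sample 2 or myoblast sample 3 was omitted (adjusted p of 0.063, 0.054 and 0.055). Averaging myotube samples 1 and 2 (0.058), equal totals (0.051) and quantile normalization (0.068) ended it as well.

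The remaining 3 rises, named after their values were seen, were of unequal strength. ENSMUST00000082493, one of the brightest to change, was read at 35621, 34869 and 41355 in myotubes, against 20397, 22472 and 22317 in myoblasts (1.71-fold, adjusted p = 0.0016), with a log2 change of 0.51 in place of 0.78 under quantile normalization. ENSMUST00000083703 had 18977, 18777 and 21514 in myotubes, against 11948, 15162 and 14375 in myoblasts (1.43-fold, adjusted p = 0.014). Equal totals took its log2 change of 0.52 to 0.34 (adjusted p = 0.035). Quantile normalization took it to 0.30 and ended the call (adjusted p = 0.18). ENSMUST00000104203 was at 2074, 2110 and 2275 in myotubes, against 1682, 1773 and 1634 in myoblasts (1.27-fold, adjusted p = 0.028). Its states did not overlap, but omission of myotube sample 1 or 2 or of myoblast sample 2 or 3 ended the call (adjusted p between 0.061 and 0.11), as did averaging myotube samples 1 and 2 (0.10). Subtracting sample medians took its log2 change of 0.34 to 0.29, equal totals to 0.17 and quantile normalization to 0.044 (adjusted p of 0.20, 0.19 and 0.80).

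A ratio of one probe to another within a sample does not depend on that sample's scaling factor. The ratio of ENSMUST00000104066 to ENSMUST00000083331 was 9.74, 9.74 and 7.76 in myotube samples 1 to 3, against 0.761, 0.936 and 0.776 in the myoblast samples. The order of this pair by signal was thus opposite in the states, in every sample. The pair was picked after the values were seen, as an even rise and the largest fall, so the ratio is a description and has no test.

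**Figure D3:**
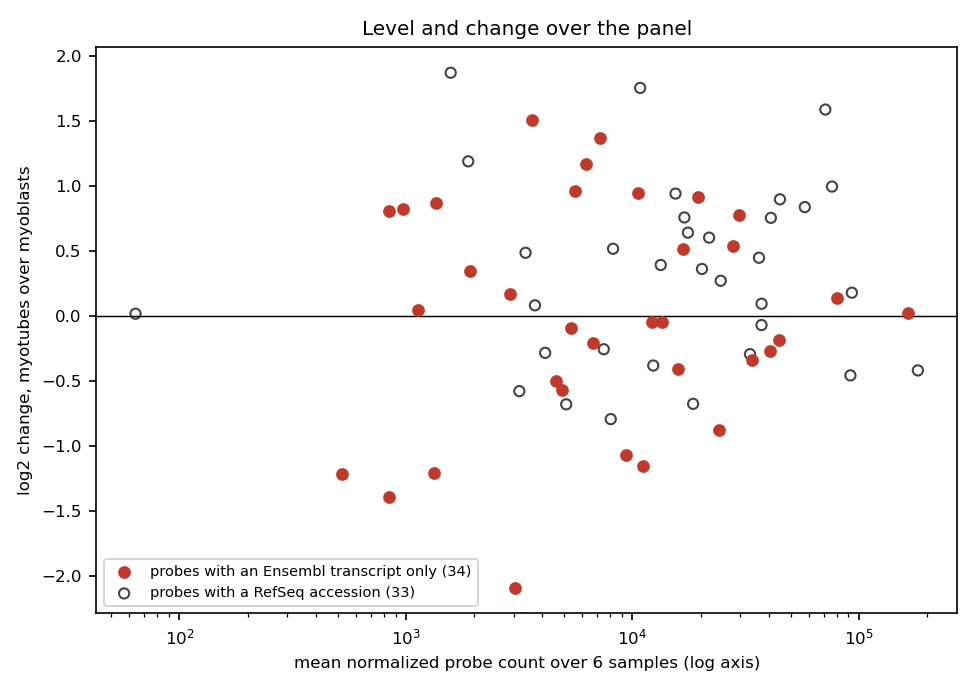
Mean normalized probe count over the 6 samples (horizontal log axis) against the log2 change of myotubes over myoblasts (vertical axis) for the 34 probes known by Ensembl transcript (filled) and the 33 with a RefSeq accession (open), 1 point a probe. All 6 falls of at least 2-fold are filled points, and filled points lie on both sides of 0 over most of the range of signal.

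Signal and change showed little common order among the 34 (Spearman's rho 0.05 across snoRNAs, which share samples and are not replicates). The median signal, as a mean over all samples, was 6240 normalized counts for those that rose, 4880 for those that fell and 12856 for those that did not pass. Over the panel these medians were 16150, 9374 and 12262 in the same order. Of the 15 with a mean of at least 10000, 4 rose, 3 fell and 8 did not pass. Of the panel's 37 such probes, 15 rose, 6 fell and 16 did not pass. Of the 4 with a mean under 1000, ENSMUST00000082703 rose, ENSMUST00000104376 and ENSMUST00000104426 fell, and ENSMUST00000116715 did not pass. The panel had 5 probes under 1000, of which 1 rose, 2 fell and 2 did not pass.

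The 14 that did not pass differed in how closely their change was bounded. For 11 of them the 95% interval excluded a change of 2-fold in either direction. The 3 smallest changes among the 12 probes above the panel's median signal were those of ENSMUST00000082448 (log2 change 0.02, 95% interval -0.27 to 0.32), ENSMUST00000104238 (-0.04, interval -0.50 to 0.42) and ENSMUST00000082579 (0.14, interval -0.11 to 0.39). For ENSMUST00000082448 and ENSMUST00000082579 the direction depended on the scaling, and equal totals put them at -0.15 and -0.036. Under quantile normalization both passed the test in opposite directions, at 0.22 (adjusted p = 0.0021) and -0.37 (adjusted p = 0.0051). ENSMUST00000104238 stood at 15775, 14845 and 9826 in myotubes, against 14896, 12424 and 13564 in myoblasts, with myotube sample 3 below all others. Its direction turned when that sample was omitted (log2 change 0.17, adjusted p = 0.27) or when myoblast sample 1 was (0.024, adjusted p = 0.95).

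The other 3 had intervals that reached past 2-fold. ENSMUST00000116715 was read at 957, 1026 and 1135 in myotubes, against 332, 843 and 738 in myoblasts, with no overlap between the states. Its log2 change of 0.81 ± 0.33 SE missed the threshold (adjusted p = 0.069), and myoblast sample 1 was by far the dimmest. Omitting that sample gave 0.39 (adjusted p = 0.031) and omitting myoblast sample 2 gave 1.06 (adjusted p = 0.022), both past the test. ENSMUST00000083965 had 38045, 36825 and 24119 in myotubes, against 26909, 18606 and 22077 in myoblasts (log2 change 0.54, adjusted p = 0.069), and myotube sample 3 fell within the range of the myoblasts. Without that sample the change was 0.75 and passed (adjusted p = 0.01). ENSMUST00000082962 overlapped widely, at 4147, 4602 and 2603 in myotubes, against 7269, 3716 and 5221 in myoblasts (log2 change -0.50 ± 0.30 SE, adjusted p = 0.19). Omitting myotube sample 3 gave -0.25 and omitting myoblast sample 1 gave -0.26 (adjusted p of 0.49 and 0.52). All 3 passed in 2 runs where limma gave all probes one variance. With sample medians subtracted the adjusted p was 0.00067 for ENSMUST00000116715, 0.033 for ENSMUST00000083965 and 0.012 for ENSMUST00000082962. With the replicate number as a block it was 0.0014, 0.036 and 0.0497 in the same order.

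Among those 11, ENSMUST00000175078 came nearest to a call. It stood at 29044, 28371 and 31273 in myotubes, against 32062, 41218 and 39585 in myoblasts, with no overlap (log2 change -0.34, adjusted p = 0.065). When myoblast sample 1 was omitted it passed at -0.45 (adjusted p = 0.0054). It also passed at -0.52 for equal totals (adjusted p = 0.0051), at -0.54 for quantile normalization (adjusted p = 0.014) and in a robust fit with trend (adjusted p = 0.046). ENSMUST00000083292 gave 34321, 33949 and 41256 in myotubes, against 34328, 50610 and 48200 in myoblasts, where sample 1 matched the lower myotube samples (log2 change -0.27, adjusted p = 0.23). It passed as a fall when myoblast sample 1 was omitted (-0.44, adjusted p = 0.025), for equal totals (-0.44, adjusted p = 0.043) and for quantile normalization (-0.73, adjusted p = 0.018). ENSMUST00000103979 had the widest spread within myotubes, at 7451, 7590 and 3951, against 8248, 5817 and 7185 in myoblasts (log2 change -0.21, adjusted p = 0.54). Its change was 0.10 when myotube sample 3 was omitted (adjusted p = 0.64) and -0.091 when myoblast sample 1 was (adjusted p = 0.85). The last 4, ENSMUST00000083348, ENSMUST00000083353, ENSMUST00000083171 and ENSMUST00000183789, had log2 changes of 0.17, -0.09, -0.04 and 0.05 (adjusted p of 0.53 or above), and their states overlapped.

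The snoRNAs read low in myotube sample 3 were often those read high in myoblast sample 1. Against the mean of the other samples of its state, myotube sample 3 departed by more than 0.5 on the log2 scale for 8 of the 34, all of them lower. Myoblast sample 1 did so for 6, of which 1 was higher. Myotube sample 3 was low and myoblast sample 1 high for 10 snoRNAs, and the reverse held for 13. Both samples were low for 6 and high for 5. Across the 34 snoRNAs Pearson's r between the departures was -0.47 and Spearman's rho -0.46, a description over probes that share the same 6 samples. The other 33 probes gave -0.66 and -0.45, and the whole panel -0.54 and -0.42, so the negative correlation was not particular to the 34. Of the other 33, however, 23 were low in myotube sample 3 and 24 were low in myoblast sample 1. Many of them were thus low in both samples, and the pairing of low with high was less common there.

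ENSMUST00000082962 was an extreme case, with departures of -0.75 in myotube sample 3 and 0.72 in myoblast sample 1. For ENSMUST00000103979 they were -0.93 and 0.35 in the same order. ENSMUST00000116715 departed by 0.20 in myotube sample 3 and -1.25 in myoblast sample 1, and ENSMUST00000083370 by -0.015 and -0.97. These 2 were thus low in myoblast sample 1 without a low reading in myotube sample 3. Myoblast sample 1 also had the largest scaling factor of the 6 samples, 1.31, and the lowest panel total, and the part of scaling in these departures was not tested.

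**Figure D4:**
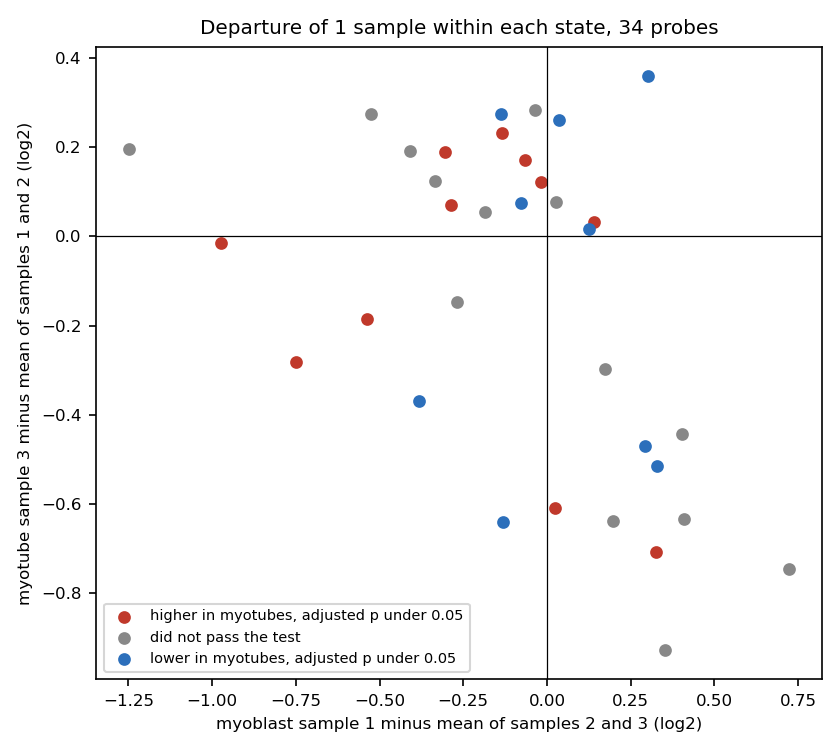
Departure of myotube sample 3 from the mean of myotube samples 1 and 2 (vertical axis, log2) against that of myoblast sample 1 from the mean of myoblast samples 2 and 3 (horizontal axis, log2), 1 point for each of the 34 snoRNA probes, coloured by the outcome of the test. The 8 points below -0.5 on the vertical axis are spread over probes that rose, fell and did not pass, and 7 of them lie right of 0 on the horizontal axis.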

How the data were processed

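The authors deposited one table of normalized signal, a probe count scaled by one factor per sample. The unit was read from the values: each of the 67 values of a sample is a whole number times that sample's factor, within 0.01 of a count, and the factors ran from 1.01 to 1.31. Neither the basis of the factor nor the treatment of background is stated. RNA was isolated with Trizol, DNase and RNeasy columns, per the labels' protocols.

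In R 4.3.3, log2(value + 1) of all 67 probes was fitted by limma 3.58.1 (two-sided moderated test after lmFit and eBayes, with state as its single term), with Benjamini-Hochberg adjustment and a threshold of 0.05, and the procedure was tested on simulated data. Sums were compared by exact permutation of the 6 samples. Python 3.11.15 was used for summaries. No count model was run. State was taken from the sample titles, since the cell type label reads myoblasts for every sample. Precision is set by 3 samples a state.

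The named snoRNAs are the 8 largest rises and falls that passed, the 3 highest and 3 lowest means, the 3 smallest changes above the panel's median signal, the 3 widest spreads within a state, and those with no value. The rest were named so that all are accounted for. Members and rules were chosen with earlier results of these data known. Alternatives were sample medians subtracted, quantile normalization, equal panel totals, a pseudocount of 10, a minimum mean of 1000, a replicate block, a robust fit with trend and each sample left out. Averaging myotube samples 1 and 2 was chosen after seeing the data.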

Additional observations from a re-analysis of the deposited data

How the results depend on the processing

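Of the 20 calls, 14 held in the same direction in each of the 14 alternatives that tested them, 7 higher and 7 lower. The minimum mean of 1000 left out 4 of the 34 snoRNAs. Counts of calls were 8 to 12 higher and 7 to 12 lower over all alternatives. Over the panel, calls in either direction numbered 29 to 42. With the replicate number as a block there were 12 higher and 9 lower, 18 of them among the 20, without ENSMUST00000093658 and ENSMUST00000104203. Same-numbered samples correlated at 0.44, -0.74 and -0.02 in their departures from the state means over the panel. Departures from a state mean constrain one another, so these values cannot show whether the numbers pair the samples. In the block fit and with sample medians subtracted, limma gave all probes one variance. The median log2 change of the 34 was -0.18 for equal panel totals and -0.16 for quantile normalization, against -0.01 as deposited.

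Changes of sign occurred only among snoRNAs that did not pass on the deposited scale. With sample medians subtracted ENSMUST00000082448 and ENSMUST00000183789 were at -0.035 and -0.012. With equal panel totals ENSMUST00000082448, ENSMUST00000082579, ENSMUST00000083348 and ENSMUST00000183789 were at -0.15, -0.036, -0.0056 and -0.13. Under quantile normalization ENSMUST00000082579 and ENSMUST00000183789 were at -0.37 and -0.071. With each sample left out in turn, the log2 change of ENSMUST00000082448 ran from -0.072 to 0.073, ENSMUST00000083171 from -0.13 to 0.012, ENSMUST00000083348 from -0.030 to 0.32, ENSMUST00000083353 from -0.17 to 0.0053, ENSMUST00000103979 from -0.37 to 0.10, ENSMUST00000104238 from -0.17 to 0.17 and ENSMUST00000183789 from -0.090 to 0.14. The cause of these shifts was not tested. With no negative control probes in the table, no detection limit could be set.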
